A study of Mus musculus with 8 samples.

Results

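The globin genes of the mouse alpha and beta clusters were followed in 8 QuantSeq libraries. The set held 8 of the 55487 genes counted. Of these, 3 lie in the alpha cluster (Hba-x, Hba-a1 and Hba-a2) and 5 in the beta cluster (Hbb-y, Hbb-bh0, Hbb-bh1, Hbb-bs and Hbb-bt). They were found by matching Ensembl identifiers, without version number, to symbols, and each member matched a single row. The genes were chosen with their difference between the cell lines already known, so their levels are described here and carry no test.

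Libraries came from mouse E14-Tg2a embryonic stem cells taken at day 6 of differentiation in serum-free medium towards precardiac mesoderm, the early tissue from which heart progenitors form. One group of 4 biological replicates was the parental line, labelled WT for Tbx1. The other group of 4 was line 4D, derived from the same cells and labelled Tbx1-/-, which lacks the T-box transcription factor encoded by Tbx1. Both groups received the same differentiation and no other treatment is given. All mutant libraries came from line 4D alone, so the genotype and other properties of that line cannot be told apart.

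Globins are the protein chains of haemoglobin, in which alpha-like chains pair with beta-like chains around heme. The first red cells of the mouse embryo, the primitive erythroid cells of the yolk sac, use embryonic chains: zeta from Hba-x on the alpha side, and the products of Hbb-bh1 and Hbb-y on the beta side. As these cells mature, Hbb-bh1 gives way to Hbb-y and Hba-x to the adult alpha genes Hba-a1 and Hba-a2. Hbb-bs and Hbb-bt are the adult beta genes, named for the haplotype of the C57BL/6 reference, whereas E14-Tg2a cells derive from strain 129. Mesoderm cultures can hold blood progenitors beside heart progenitors, since both arise from early mesoderm.

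RefSeq promoter windows on build GRCm38.p6 were matched for 6 of the 8 members, all but Hbb-bh0 and Hbb-bh1. The 150 bases before the RefSeq start are shown for 5 genes, because embryonic and adult members of each cluster can be read side by side. Capitals mark matches, on either strand, to GATA (the core that GATA factors recognise), CACCC (recognised by Klf factors), CCAAT (the CCAAT box) and TATAA (a form of the TATA box), and no matches overlapped.
Hba-x, chr11:32276450-32276599, plus strand: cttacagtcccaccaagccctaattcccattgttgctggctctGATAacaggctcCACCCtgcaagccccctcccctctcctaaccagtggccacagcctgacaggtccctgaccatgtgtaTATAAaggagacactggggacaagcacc
Hba-a1, chr11:32283522-32283671, plus strand: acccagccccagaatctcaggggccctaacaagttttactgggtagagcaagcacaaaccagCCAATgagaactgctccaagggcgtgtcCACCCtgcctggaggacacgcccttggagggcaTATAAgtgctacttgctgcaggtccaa
Hbb-y, chr7:103853208-103853357, minus strand: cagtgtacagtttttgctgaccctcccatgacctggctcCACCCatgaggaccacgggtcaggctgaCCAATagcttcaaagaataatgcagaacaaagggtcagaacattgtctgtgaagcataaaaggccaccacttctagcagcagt
Hbb-bs, chr7:103827929-103828078, minus strand: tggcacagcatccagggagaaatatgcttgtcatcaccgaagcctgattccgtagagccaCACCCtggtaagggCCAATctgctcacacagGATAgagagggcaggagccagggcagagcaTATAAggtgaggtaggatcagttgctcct
Hbb-bt, chr7:103813924-103814073, minus strand: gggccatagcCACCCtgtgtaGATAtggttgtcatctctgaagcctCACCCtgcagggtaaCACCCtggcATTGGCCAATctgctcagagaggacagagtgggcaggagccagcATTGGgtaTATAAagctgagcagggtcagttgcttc
The first exons of GENCODE M21, the annotation used for positions below, start further upstream for several of these genes, so that all 150 bases shown for Hba-x and for Hba-a1 fall inside an M21 exon.

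CACCC was matched in all 6 windows, and the corresponding share over 32851 RefSeq windows of the same length was 37.4%. GATA was matched in Hba-x, Hbb-bs and Hbb-bt (35.7% of all windows). CCAAT was matched in all but Hba-x (24.5%) and TATAA in all but Hbb-y (14.2%). The windows of Hba-a1 and Hba-a2 were identical over 147 shared bases. Those of Hbb-bs and Hbb-bt were identical at 106 of 149 bases. A match is a run of letters and was not tested as a binding site.

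Libraries held between 3803561 and 6293907 counts. Tbx1 had 39, 65, 38 and 22 counts in parental libraries 1 to 4 and 3, 0, 1 and 0 in mutant libraries 1 to 4. Mutant library 4 stood apart across genes: its log2 CPM correlated with the other libraries at 0.857 to 0.881, against 0.920 to 0.944 among the other 7, and differences without it are given for the globin sum and ratios. Levels are CPM, library-size-normalised counts after scaling by the TMM method. QuantSeq makes a tag near the 3′ end of a polyA RNA, whose count does not depend on transcript length, and levels of different genes are compared on this tag scale.

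Globin RNA was scarce in the parental cultures and about 5 times as abundant in the mutant line, while its division between embryonic and adult genes overlapped between the lines. Summed over the 8 genes, the level was 186, 176, 128 and 176 CPM in parental libraries 1 to 4 and 1059, 754, 756 and 867 CPM in mutant libraries 1 to 4. The lowest mutant library was thus far above the highest parental one. Means were 167 ± 25.8 CPM and 859 ± 144 CPM (SD, n = 4 each), which corresponded to 0.0164% and 0.0862% of all counts. The difference of mean log2 sums was 2.37, and it was 2.36 without mutant library 4. These are bulk cultures, so fewer cells of a type and less RNA per cell cannot be told apart. For 7 of the 8 genes every mutant library lay above every parental library. Among the 13280 genes past the filter on low counts, 3.49% showed this. Because the genes were chosen on this contrast, nothing is read from the count.

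**Figure D1:**
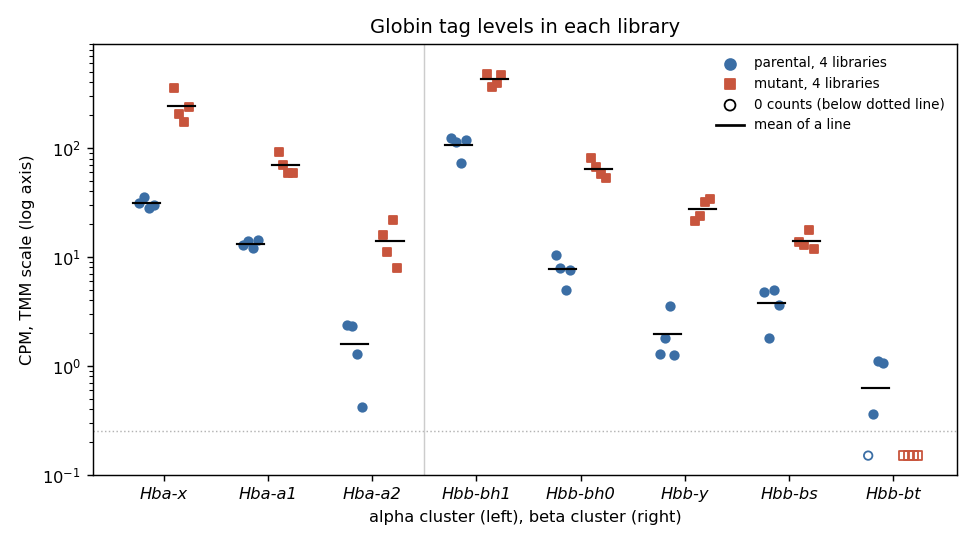
Level of each globin gene in each library, as CPM on the TMM scale on a log axis, with parental libraries as circles and mutant libraries as squares. Lines mark the mean of a line and open symbols below the dotted line mark 0 counts. Mutant squares lie above the parental circles for every gene but Hbb-bt, which had 0 counts in all 4 mutant libraries.

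On the alpha side, the embryonic gene was the most abundant. Hba-x (ENSMUSG00000055609.8) encodes the zeta chain; its position is chromosome 11, 32276400 to 32278116, on the plus strand. Its level ran at 31.1, 35.5, 27.9 and 30.1 CPM in parental libraries and 357, 205, 171 and 236 CPM in mutant libraries 1 to 4. Parental cultures were close together, with a mean of 31.2 ± 3.19 CPM, whereas mutant cultures spread more widely around 242 ± 80.7 CPM (SD, n = 4). The fitted log2 difference was 2.96 ± 0.19 (SE). Mutant library 1 was the highest for Hba-x. That library also had the highest summed level of the endothelial and haemogenic list described below, at 1515 CPM against 878 to 932 CPM in the other mutant libraries, and the part of such cells in the Hba-x level was not tested.

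Hba-a1 (ENSMUSG00000069919.7, chromosome 11, 32283511 to 32284465, plus strand) and Hba-a2 (ENSMUSG00000069917.7, chromosome 11, 32296489 to 32297298, plus strand) encode adult alpha chains. Hba-a1 stood at 12.7, 13.99, 11.97 and 14.3 CPM in parental libraries and at 91.4, 69.1, 58.9 and 59.4 CPM in mutant libraries, with no overlap. Its fitted log2 difference was 2.40 ± 0.20 (SE). Hba-a2 rested on fewer counts, 13, 13, 8 and 2 in parental and 94, 51, 119 and 29 in mutant libraries. Its levels were 1.599 ± 0.933 and 14.1 ± 5.94 CPM (SD, n = 4), a fitted log2 difference of 3.12 ± 0.53 (SE), and the lines did not overlap.

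The split between the adult alpha genes is uncertain. Aligned over 538 bases, their M21 transcripts differed at 1 base. Of the 50-base windows in the last 200 bases, 33.1% for Hba-a1 and 43.7% for Hba-a2 occurred in no other gene, against 100% for Hba-x, Hbb-y, Hbb-bh1, Hbb-bs and Hbb-bt. The longest shared run stopped 123 bases before the end of Hba-a1 and 139 before that of Hba-a2, and the specific windows of Hba-a1 are those that cover the differing base just after that run. How reads that fit both genes were counted is not given in the sources used here. If they were left out, the adult alpha total would also be too low. The embryonic share, the embryonic to adult alpha ratio and the alpha to beta ratios given below share this limit, which was not tested. Hba-a2 took 15.7%, 14.3%, 9.64% and 2.86% of adult alpha counts in parental libraries and 14.7%, 13.9%, 26.9% and 11.8% in mutant libraries, so the lines overlapped.

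On the beta side, Hbb-bh1 (ENSMUSG00000052217.6, chromosome 7, 103841637 to 103843164, minus strand) was the most abundant globin in every library. It encodes an embryonic beta-like chain. Its level was 123, 112, 72.8 and 118 CPM in parental libraries and 480.1, 366, 397 and 465 CPM in mutant libraries. Parental library 3 was the lowest, and the lines did not overlap. Means were 106 ± 22.9 and 427 ± 54.6 CPM (SD, n = 4), with a fitted log2 difference of 2.00 ± 0.15 (SE).

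Hbb-y (ENSMUSG00000052187.4, chromosome 7, 103851749 to 103853216, minus strand), the other embryonic beta gene, was rare in the parental line. It had 7, 10, 22 and 6 counts there, or 1.27, 1.79, 3.51 and 1.26 CPM, and 21.5, 23.8, 31.6 and 34.1 CPM in mutant libraries. The mutant mean of 27.7 ± 6.06 CPM was 14.1 times the parental mean of 1.96 ± 1.06 CPM (SD, n = 4), the largest ratio among the members. Its fitted log2 difference was 3.78 ± 0.37 (SE).

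Hbb-bh0 (ENSMUSG00000085700.1, chromosome 7, 103850020 to 103850148, minus strand) is annotated in M21 as an unprocessed pseudogene of 129 bases, although RNA was counted there in every library. Its level was 10.4, 7.89, 4.95 and 7.59 CPM in parental and 80.5, 66.2, 57.9 and 52.5 CPM in mutant libraries. The fitted log2 difference was 3.07 ± 0.24 (SE), and the lines did not overlap. The 129 bases were 88.4% identical to the Hbb-y transcript and 87.6% to that of Hbb-bh1. None of its 80 windows of 50 bases occurred in another M21 transcript.

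Adult beta genes were among the less abundant members. Hbb-bs (ENSMUSG00000052305.6, chromosome 7, 103826534 to 103828096, minus strand) had 26, 10, 31 and 17 counts in parental and 81, 59, 97 and 43 in mutant libraries. Its levels were 3.76 ± 1.44 and 13.98 ± 2.54 CPM (SD, n = 4), without overlap, and its fitted log2 difference was 1.89 ± 0.41 (SE), the smallest of the 7 genes with a fitted value. Hbb-bt (ENSMUSG00000073940.3, chromosome 7, 103812524 to 103813996, minus strand) differed from the rest. It had 0, 2, 7 and 5 counts in parental libraries and 0 in all 4 mutant libraries, and did not pass the low-count filter. Pooled over the group, the parental level was 0.634 CPM. With 3 counts taken as a floor for the 0 observed, the mutant group stood at 0.152 CPM, 4.16-fold below the parental level. That floor allows for counting error in the mutant group alone. It takes the few parental counts as exact and leaves out the spread between cultures, so it gives no firm minimum. Parental library 1 also had 0 counts, so the lines overlapped. The Hbb-bs and Hbb-bt transcripts were 92.7% identical over 626 aligned bases. How reads from the strain 129 beta genes fell on these reference genes was not tested.

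The order of mean levels was the same in both lines apart from Hbb-bs, which stood above Hbb-y and Hba-a2 in the parental line and below both in the mutant line. In parental cultures it ran Hbb-bh1, Hba-x, Hba-a1, Hbb-bh0, Hbb-bs, Hbb-y, Hba-a2 and Hbb-bt from high to low CPM. The first 3 steps had no overlap between neighbours, and from Hbb-bh0 downwards the ranges of neighbours overlapped. In mutant cultures the order was Hbb-bh1, Hba-x, Hba-a1, Hbb-bh0, Hbb-y, Hba-a2, Hbb-bs and Hbb-bt. There the ranges of Hba-a1 and Hbb-bh0 overlapped, as did those of Hbb-y and Hba-a2 and those of Hba-a2 and Hbb-bs. Hbb-y lay above Hbb-bs in all 4 mutant libraries. In the parental line it lay below Hbb-bs in libraries 1, 3 and 4, and both genes had 10 counts in library 2.

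**Figure D2:**
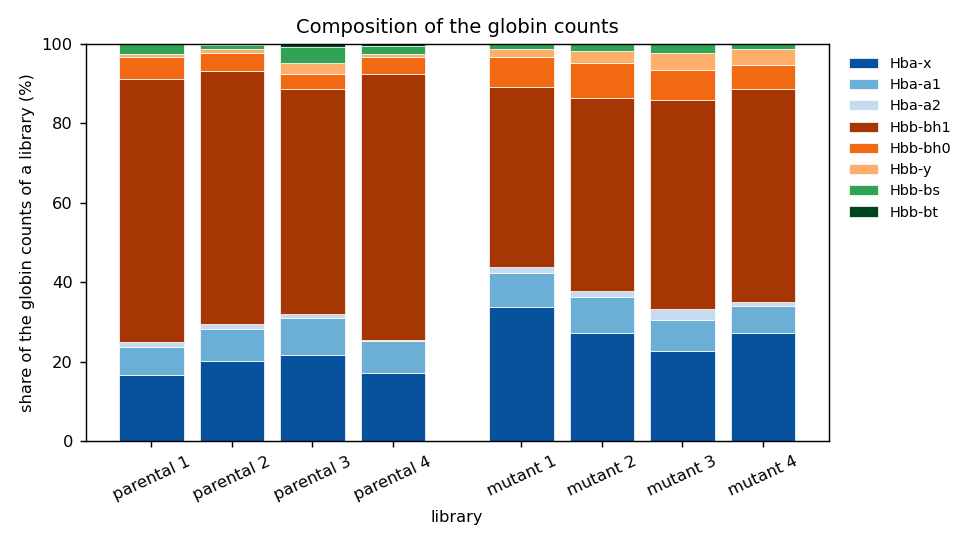
Share of each globin gene in the globin counts of a library, in percent, for parental and mutant libraries 1 to 4. Hbb-bh1 (dark brown) takes 56.6% to 66.8% of the parental bars and 45.3% to 53.6% of the mutant bars, and the embryonic genes together fill 85.0% to 90.9% of every bar.

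Embryonic genes made up most globin counts in both lines. Hbb-bh0, annotated as a pseudogene, was grouped with them here. The embryonic share (Hba-x, Hbb-y, Hbb-bh0 and Hbb-bh1) was 89.3%, 89.5%, 85.0% and 89.0% in parental libraries and 88.6%, 87.7%, 87.0% and 90.9% in mutant libraries. Means were 88.2% ± 2.16 and 88.5% ± 1.68 (SD, n = 4), so the lines overlapped widely. Depth was adequate for this share: in parental library 4, with 835 globin counts, the adult share of 11.02% had a 95% exact Clopper-Pearson interval of 8.97% to 13.3%, which covers counting error only.

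Each cluster showed its own embryonic to adult ratio. For alpha globin, Hba-x counts were 2.05, 2.17, 2.10 and 2.04 times those of Hba-a1 and Hba-a2 together in parental libraries. In mutant libraries the ratio was 3.33, 2.55, 2.13 and 3.497. Mutant library 3 thus lay within the parental range while the other 3 were above it. The mean log2 ratios were 1.06 ± 0.04 and 1.496 ± 0.34 (SD, n = 4), a difference of 0.43, and of 0.33 without mutant library 4. For beta globin, the ratio of embryonic to adult counts was 28.0, 54.5, 13.2 and 26.7 in parental and 42.5, 35.2, 27.5 and 46.1 in mutant libraries, with full overlap. The difference of the mean log2 beta ratios was 0.45 and rested on the parental libraries with extreme values, at 0.11 without parental library 3 and 0.79 without parental library 2. It was 0.35 without mutant library 4.

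Within the embryonic beta genes, the mean ratio of Hbb-y to Hbb-bh1 was higher in the mutant line, with overlap between the lines. The parental ratios rest on 22 or fewer Hbb-y counts per library. There were 0.0111, 0.0167, 0.0493 and 0.0116 Hbb-y counts per Hbb-bh1 count in parental libraries and 0.0450, 0.0652, 0.0799 and 0.0736 in mutant libraries. Parental library 3 lay above mutant library 1, and all other parental libraries lay below the mutant range. The Hbb-bh0 to Hbb-bh1 ratio was 0.0654 to 0.0849 in parental and 0.113 to 0.181 in mutant libraries, without overlap. Hbb-bh1 accordingly held a smaller part of beta counts in the mutant line, 80.0% ± 2.02 against 88.0% ± 3.19 (SD, n = 4).

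Beta counts exceeded alpha counts in every library, by less in the mutant line. The alpha to beta ratio was 0.332, 0.417, 0.472 and 0.343 in parental libraries and 0.779, 0.608, 0.5003 and 0.538 in mutant libraries. No parental library reached the lowest mutant value, but the nearest pair lay within counting error: alpha genes took 32.0% of globin counts in parental library 3 (95% exact Clopper-Pearson interval 28.8% to 35.4%) and 33.3% in mutant library 3 (31.9% to 34.8%). Mean log2 ratios were -1.37 ± 0.24 and -0.74 ± 0.28 (SD, n = 4), a difference of 0.63, and of 0.68 without mutant library 4. Hba-x followed the same order: it reached 0.253 to 0.384 counts per Hbb-bh1 count in parental and 0.433 to 0.743 in mutant libraries. Between the adult genes the alpha to beta ratio was 3.15, 7.32, 2.17 and 3.13 in parental and 7.83, 6.19, 4.55 and 5.64 in mutant libraries, with overlap through parental library 2.

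**Figure D3:**
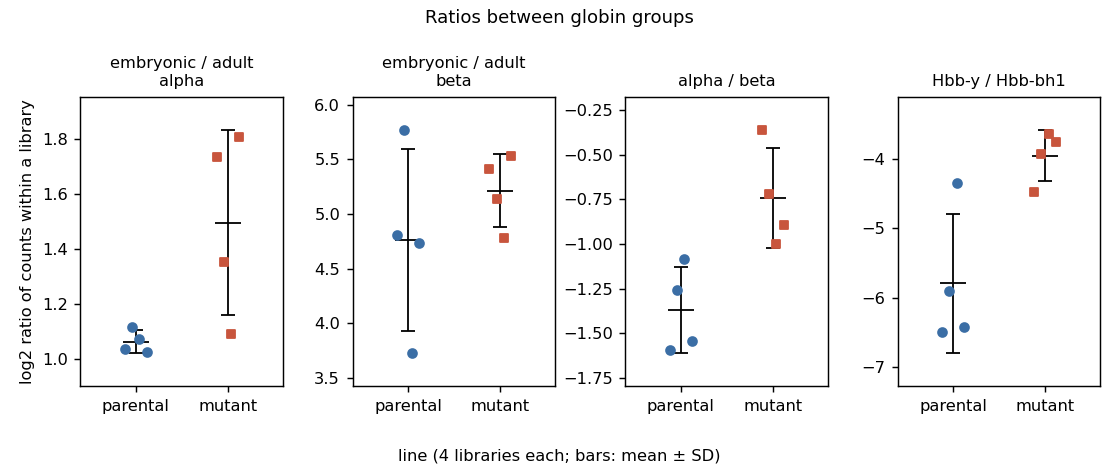
Log2 ratios of summed counts within each library for embryonic over adult alpha globin, embryonic over adult beta globin, all alpha over all beta globin, and Hbb-y over Hbb-bh1. Points are libraries and bars are mean ± SD of 4. The lines do not overlap for alpha over beta, overlap fully for embryonic over adult beta, and overlap through mutant library 3 for alpha and through parental library 3 for Hbb-y over Hbb-bh1.

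The spread between cultures was compared with the spread that counting alone would give. Hba-x had a coefficient of variation of 33.3% in the mutant line, against 2.87% from counting, and of 10.2% in the parental line, against 7.63%. Mutant cultures therefore varied in Hba-x far beyond counting error, and parental cultures hardly did. Hbb-bh1 varied by 21.5% in the parental and 12.8% in the mutant line, with counting giving 4.15% and 2.18%. For Hba-a1 in the parental line the 8.30% observed was below the 11.7% expected from counting.

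Within a line, the globin genes did not all vary together. After subtracting the mean of each line, Hba-x and Hba-a1 deviated alike over the 8 libraries (Pearson r = 0.84), and so did Hbb-bh0 and Hbb-bh1 (r = 0.74). Hbb-y deviated in the opposite sense to Hbb-bh0 (r = -0.91) and to Hbb-bh1 (r = -0.75). In parental library 3, Hbb-y was 0.83 above its line mean on the log2 scale while Hbb-bh1 was 0.52 and Hbb-bh0 0.56 below theirs. In mutant library 1, Hba-x was 0.61 and Hba-a1 0.41 above while Hbb-y was 0.34 below. Over the 21 pairs of the 7 genes past the filter, the median correlation of deviations was 0.01, with 12 pairs positive. These values describe 8 libraries, share each library's scaling, and for Hbb-y and Hba-a2 rest on parental counts of 22 or fewer.

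**Figure D4:**
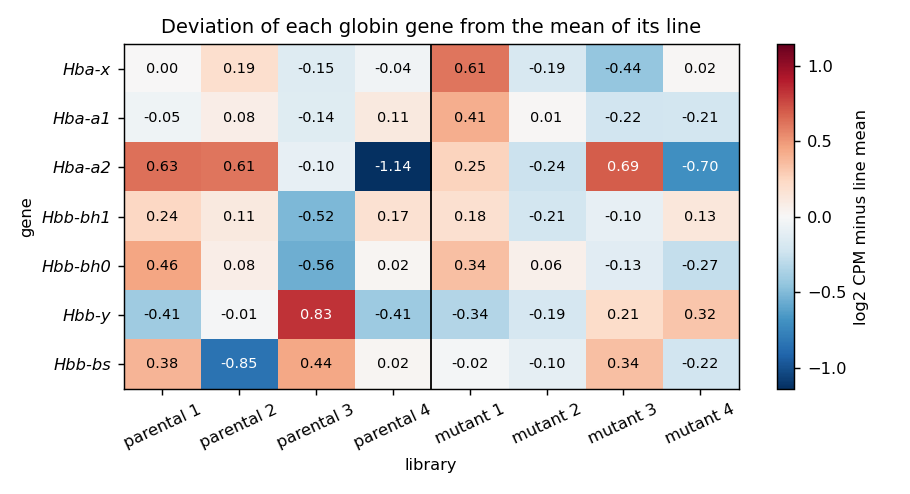
Deviation of each globin gene from the mean of its line, as log2 CPM, in each library, with red above and blue below the mean. Hbb-y is high where Hbb-bh1 and Hbb-bh0 are low in parental library 3, and Hba-x and Hba-a1 are both highest in mutant library 1.

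Genes whose log2 CPM most resembled the log2 globin sum over the 8 libraries were Flrt2, Mest, Ntm, Mapre1 and Col3a1, with Pearson r from 0.969 to 0.976. The median over 13272 other genes was -0.03. Mest, an imprinted gene, averaged 11.3 CPM in the parental and 104 CPM in the mutant line, and Col3a1, a fibrillar collagen chain, at 87.0 and 425 CPM. This measure mostly follows the difference between the lines, although Mapre1, a microtubule end-binding protein, had a log2 difference of only 0.13. With deviations from the line means instead, the 5 most similar genes were Slc25a24, Pxn, Rapgef5, Card6 and Naip2, with r from 0.958 to 0.983. None of these was past the threshold between the lines, and Card6 and Naip2 averaged only 2.29 and 2.19 CPM in the parental line. The median r of deviations was -0.01, and 8 of 13272 genes exceeded 0.95. With 8 libraries and so many genes ranked, values this high can arise by chance, so nothing is read from these 5. None of the 10 named genes is on the red cell lists below.

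Other genes of the red cell programme were examined with the edgeR quasi-likelihood test, with Benjamini-Hochberg adjustment over 13280 genes and a threshold of 0.05. Over all genes, 188 (1.42%) passed, 99 higher (0.745%) and 89 lower (0.67%) in the mutant line. With library size alone as scaling the calls were 100 higher and 57 lower. On the 9 lists of globin partners, red cell genes and neighbouring cell types, 75 of 106 genes could be tested, of which 4 rose and 0 fell. They were Bcl11a, Fli1, Slc25a37 and Cygb. The same 4 genes were called with limma-voom, and DESeq2 added Hebp1 and Slc40a1. Log2 differences were positive for 67 of the 75, against 50.2% of all tested genes.

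Among 22 erythroid transcription factors, 19 were tested and 1 rose. Bcl11a, which represses embryonic beta globin genes in mouse red cells, went from 7.15 ± 1.74 to 29.2 ± 17.7 CPM (SD, n = 4). The log2 difference of 2.02 ± 0.38 (SE) had an edgeR adjusted p of 0.00713, and was 1.55 without mutant library 4, where Bcl11a stood at 53.9 CPM. The list median was 0.54, against 0.00 over all genes tested, with 18 of 19 positive. The other factors with the highest CPM, Klf3, Ldb1 and Mafg, had log2 differences of 0.12, 0.27 and 0.19. Gata1 and Klf1, master regulators of red cell genes, are given after their values were seen. Gata1 was at 2.80 ± 1.95 and 4.62 ± 3.43 CPM and Klf1 at 4.14 ± 1.12 and 6.93 ± 3.69 CPM (SD, n = 4), with edgeR adjusted p of 0.783 and 0.635. Their log2 differences were 0.74 ± 0.80 and 0.75 ± 0.53 (SE), and 1.08 and 0.96 without mutant library 4.

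Heme synthesis genes gave 0 calls in either direction among 9 tested, with a median log2 difference of 0.16, and 0 had an unadjusted p under 0.05 with edgeR. Urod, Cpox and Alas1 were the most abundant, with log2 differences of 0.16, 0.16 and 0.24. Alas2, the red cell form of the first enzyme of heme synthesis, had 11, 7, 1 and 15 counts in parental and 37, 12, 15 and 0 in mutant libraries, and was chosen after its values were seen. Of 11 tested iron and heme transport genes, 1 rose. This was Slc25a37, mitoferrin, which carries iron into mitochondria, at 19.9 ± 1.44 and 37.2 ± 6.603 CPM (SD, n = 4). The log2 difference of 0.90 ± 0.21 (SE) had an edgeR adjusted p of 0.0347. That call was lost without any one of parental libraries 1 to 4 or mutant libraries 2 and 3, with adjusted p up to 0.131, and with a replicate block, at an adjusted p of 0.0518. Fth1, Tfrc and Slc40a1, the most abundant others, had log2 differences of 0.09, 0.08 and 0.94.

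Red cell membrane and enzyme genes gave 0 calls among 12 tested, and 1 had an unadjusted p under 0.05 with edgeR. The list median was 0.23. Prdx2, Epb41 and Blvrb were the most abundant, with log2 differences of 0.05, 0.07 and 0.18. Among globin partners, none of Hebp1, Hbp1 and Eif2ak1 passed. Hebp1, a heme-binding protein, had a log2 difference of 1.28 ± 0.35 (SE) and an edgeR adjusted p of 0.083. That adjusted p was 0.0295 without parental library 1 and 0.275 without parental library 2. No other single omission brought it under the threshold.

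Globins outside the set were nearly silent, apart from Cygb. Hbq1a, Hbb-bh2 and Hbb-bh3 had 0 counts in every library, and Hbq1b had 2 counts in parental library 4 and 18 in mutant library 1. Cygb, cytoglobin, a globin of fibroblasts and other tissue cells, rose from 25.3 ± 6.91 to 48.7 ± 11.7 CPM (SD, n = 4), a log2 difference of 0.95 ± 0.22 (SE) with an edgeR adjusted p of 0.04. Its call was lost without any one of parental libraries 2, 3 and 4 or mutant libraries 1 and 3, with adjusted p up to 0.189.

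**Figure D5:**
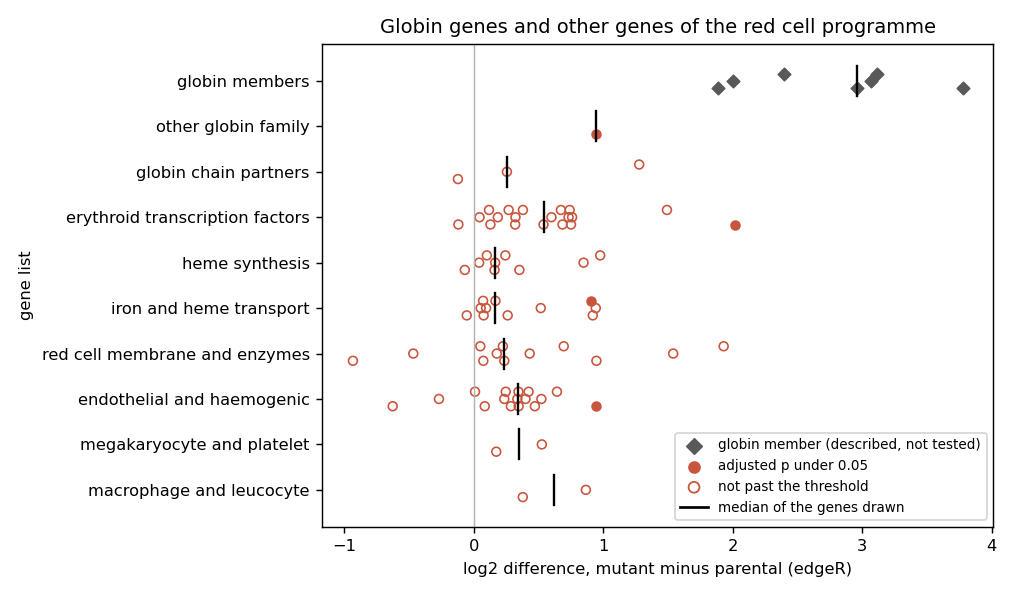
Log2 difference between the lines, mutant minus parental, for the 7 globin genes with a fitted value (diamonds, not tested) and for the tested genes of 9 lists (circles, filled where the edgeR adjusted p was under 0.05), with the median of each list as a bar. Globin genes lie between 1.89 and 3.78, while list medians lie between 0.16 and 0.95.

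Markers of the cell types from which blood arises, or which could accompany it, are given next. Of 16 endothelial and haemogenic genes tested, 1 rose. Fli1, a factor of endothelial and blood progenitors, went from 39.1 ± 7.75 to 75.3 ± 13.4 CPM (SD, n = 4). The log2 difference of 0.95 ± 0.18 (SE) had an edgeR adjusted p of 0.00966, which became 0.0525 without parental library 3. Kdr, Egfl7 and Pecam1, the most abundant others, had log2 differences of 0.34, 0.01 and -0.27. The list median was 0.34, against 0.00 over all genes tested, with 14 of 16 positive. The summed level of this list was 719 to 1129 CPM in the parental and 878 to 1515 CPM in the mutant line, with overlap. Of 8 megakaryocyte and platelet genes, 2 were tested and 0 passed, at either threshold; their sum was 14.5 to 23.5 CPM in the parental and 19.5 to 26.5 CPM in the mutant line, and Ppbp had 0 counts throughout. For 8 macrophage and leucocyte genes, 2 were tested and 0 passed, also unadjusted with edgeR. Their sum was 4.00 to 12.4 CPM and 13.4 to 16.8 CPM, without overlap. Ptprc and Csf1r had 0 counts in all parental libraries. In mutant libraries 1 to 4, Ptprc had 0, 14, 3 and 9 counts and Csf1r 1, 8, 17 and 3. Each other gene of the list had parental counts. Parental and mutant means were 2.04 and 1.79 CPM for Tyrobp, 0.364 and 0.444 CPM for Lyz2, and 1.08 and 2.92 CPM for Fcer1g. Aif1 had 1 count, in parental library 4. Spi1 and Cd68, the tested genes, had log2 differences of 0.87 ± 0.67 and 0.38 ± 0.81 (SE). The part of these cell types in the globin difference was not tested.

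Flanking genes with a fitted value had log2 differences of -0.35 to 1.13. The globin genes, at 1.89 to 3.78, were chosen on this contrast, so nothing is read from the gap. Beside the beta cluster only Trim6, 365577 bases away, had a fitted value. Of the 5 nearest genes with counts on each side of the alpha cluster, 8 were tested and 0 passed the edgeR threshold. Nprl3, whose introns hold the main enhancers of the alpha globin genes, stood at 2.83 ± 1.96 and 5.15 ± 0.923 CPM in the parental and mutant line (SD, n = 4), a log2 difference of 0.84 ± 0.66 (SE) and an edgeR adjusted p of 0.681. Snrnp25 and Sh3pxd2b had log2 differences of -0.35 ± 0.23 and 0.10 ± 0.15 (SE). Around the beta cluster, which lies among olfactory receptor genes, 9 of the 10 nearest genes with counts had at most 10 counts in any library. The tested one, Trim6, stood at 32.4 ± 8.91 and 32.3 ± 5.54 CPM (SD, n = 4).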

How the data were processed

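RNA of 4 parental and 4 mutant cultures was sequenced by QuantSeq from polyA RNA. The authors deposited 1 table of raw counts per gene and library, without normalization or pooling. STAR, featureCounts and build mm10 are named in the submitters' processing notes, without versions. The name of the deposited table states forward-strand counting. The annotation and the treatment of multi-mapped and duplicate reads are not given in the sources used here. Symbols were found for 55141 of 55487 identifiers, and positions are those of GENCODE M21 on GRCm38, the same assembly as mm10.

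Genes with low counts were removed with filterByExpr of edgeR 4.0.16, leaving 13280 genes with 99.5% of counts, and libraries were scaled by TMM. The lines were compared with glmQLFit and glmQLFTest, two-sided, in R 4.3.3 with line as the only term, and the fit was tested on simulated data. Adjusted p-values are Benjamini-Hochberg values from edgeR over the 13280 genes. Ratios within a library had 0.5 counts added on each side, and log2 CPM used a prior count of 2. The SE of a log2 difference is its size over the square root of F. P-values set the difference between the lines against the spread between these cultures. With line 4D as the only mutant line, they do not cover the spread between lines of a genotype. Pairs of libraries within a line differed by more than sampling noise (chi-square per degree of freedom 7.04 to 24.2), and all 8 were used.

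The members and gene lists were chosen with earlier results of these data known. Genes named were the 8 members, Tbx1, every called gene of the lists and up to 3 others per list by mean CPM, the flanking genes, and the 5 genes most like the globin sum by each of both measures. Gata1, Klf1, Alas2, Tal1, Ptprc, Csf1r, Tyrobp, Lyz2, Aif1, Ppbp and the globin family genes at or near 0 were named outside this rule, after their values were seen. Ahsp was not analysed here, and 1 list gene is not reported by name. Alternatives were RLE scaling, library size alone, no filter, DESeq2 1.42.0, limma-voom (limma 3.58.1), a replicate block, and leaving out each library.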

Additional observations from a re-analysis of the deposited data

Results flagged for a closer look

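Values of 1 library far from the other 3 of its line were sought in 64 groups of 4 with Dixon's test at 95%, where chance gives about 1 flag in 20 groups, and 4 were found. The summed globin level of parental library 3 was 128 CPM, below 176 to 186 CPM in the other parental libraries. In mutant library 1 the summed level of the endothelial and haemogenic list was 1515 CPM, above 878 to 932 CPM in the other mutant libraries. Cygb had 66.2 CPM in mutant library 1, against 42.1 to 43.8 CPM in the others, and through it the sum of the other globin family was 69.4 CPM in that library, also far from the other 3. Causes were not tested.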

How the results depend on the processing

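The fitted log2 differences of the 7 globin genes stayed positive in all 98 combinations of gene and alternative and moved by less than 1 SD between libraries in each. Their summed log2 difference of 2.37 was 2.82 without Hbb-bh1, the most abundant member, and 2.25 to 2.42 when single libraries were left out. Single omissions gave 0.33 to 0.57 for embryonic to adult alpha, 0.11 to 0.79 for embryonic to adult beta and 0.50 to 0.72 for alpha to beta. Without Hbb-bh0, embryonic to adult beta was 0.36 and alpha to beta 0.72, against 0.45 and 0.63 with it. The 188 calls over all genes became 439 with no low-count filter and 399 with DESeq2, and 103 to 235 with single libraries left out. Calls numbered 103, 104 and 116 without parental library 2, parental library 3 and mutant library 3. The 4 list genes called became 7 without the filter and 1 to 5 with single libraries left out. They numbered 1 without parental library 3 and 2 without parental library 2, parental library 4 or mutant library 3. Tal1 was called only without mutant library 4, with an edgeR adjusted p of 0.0429. The causes were not tested. Whether same-numbered libraries of the lines share a batch is not stated. Their deviations correlated at -0.03 to 0.10, against -0.08 to 0.06 for different numbers. Of 8 libraries, 3 correlated best with their own number, and so few pairs cannot settle the question. A replicate block gave 234 calls over all genes, which included 172 of the 188, and 3 list genes, Slc25a37 having an edgeR adjusted p of 0.0518. Depth limits Hbb-bt, Hba-a2 and parental Hbb-y most, with at most 7, 13 and 22 parental counts.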
